A study of Homo sapiens with 16 samples.

Results

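AXL, TYRO3 and MERTK form a small family of receptor tyrosine kinases, the TAM receptors, and GAS6 and PROS1 encode their secreted ligands. The 5 genes were matched by symbol to gene identifiers of a read-count table that lists 58735 of them, and each symbol matched 1 identifier. They were chosen by family and selected on measured levels of these same libraries (read counts and CPM, counts per 1000000 reads, in the 4 groups), so their own values are given here as a description. The fits across all genes also made calls on them, which are counted beside the share of all genes and support nothing. RNA was sequenced from 2 established human testicular germ cell tumour lines, NTERA-2 (NT2/D1 in the study), an embryonal carcinoma line, and TCam-2, a seminoma line. The groups, of 4 libraries each, were NTERA-2 cells with the MIR9-2-5p mimic, NTERA-2 cells with the scrambled mimic, TCam-2 cells with the MIR9-2-5p mimic and TCam-2 cells with the scrambled mimic. The mimic is a synthetic copy of the mature microRNA miR-9-5p, all cells went through the same transfection reagent, and all were collected on day 3. NTERA-2 cells grew in DMEM and TCam-2 cells in RPMI with added amino acids and pyruvate, so line and medium cannot be told apart.

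TAM receptors do not bind dying cells directly. GAS6 and protein S (the product of PROS1) hold on to phosphatidylserine, a lipid that apoptotic cells expose, through a domain modified by a vitamin K-dependent carboxylase, and bridge it to the receptor on the engulfing cell. GAS6 binds all of the receptors, whereas protein S acts on TYRO3 and MERTK and is also an anticoagulant of blood plasma. In the mouse testis, Sertoli cells use these receptors to clear dying germ cells, and AXL is widely studied in tumours for its links to invasion and drug resistance.

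Library totals ran between 14167738 and 22427162 counted reads, and no pair of replicates agreed within sampling noise. The markers of embryonal carcinoma summed to 1487 to 1600 CPM in NTERA-2 cells with the MIR9-2-5p mimic, against 5714 to 5943 CPM with the scrambled mimic. In TCam-2 cells they summed to 3708 to 3951 CPM with the MIR9-2-5p mimic and 4143 to 4562 CPM with the scrambled mimic. Seminoma markers summed to 128 to 134 CPM in NTERA-2 cells with the MIR9-2-5p mimic and 136 to 149 CPM with the scrambled mimic, and to 2034 to 2171 CPM in TCam-2 cells with the MIR9-2-5p mimic and 1627 to 1741 CPM with the scrambled mimic. The embryonal carcinoma sum did not separate the lines, and POU5F1, NANOG and LIN28A of that list are also known from seminoma. SOX2, which seminoma lacks, averaged 182 CPM in NTERA-2 cells with the MIR9-2-5p mimic and 368 CPM with the scrambled mimic, and 0.795 and 1.55 CPM with the same mimics in TCam-2 cells. The 8 markers of macrophages and other leukocytes, cells that use MERTK and AXL in tissues, summed to 2.86 to 3.09 CPM in NTERA-2 cells with the MIR9-2-5p mimic and 1.34 to 1.75 CPM with the scrambled mimic. In TCam-2 cells they summed to 5.83 to 7.25 CPM with the MIR9-2-5p mimic and 10.9 to 11.7 CPM with the scrambled mimic, and most of either sum was CSF1R. The pan-leukocyte gene PTPRC was at 0 in every scrambled library of both lines, and 3 and 4 of the 8 genes were at 0 in all TCam-2 libraries with the MIR9-2-5p and the scrambled mimic.

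A microRNA recognises messenger RNAs mainly through its seed, bases 2 to 8. The mature sequence is shown first, with the seed in capitals, because the sites below it are its reverse complement. It lies on the minus strand at chr5:88666902-88666924 (RefSeq, GRCh38.p14). Below it stand the best matches in the longest annotated 3′ UTR of each receptor gene (GENCODE release 44, GRCh38), written as DNA of the gene's own strand with the matched bases in capitals.
hsa-miR-9-5p: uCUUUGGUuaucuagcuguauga
AXL, chr19:41261281-41261308, plus strand: cagttgtgactaactagacACCAAAGtt
TYRO3, chr15:41581937-41581964, plus strand: aggattttcacaaacagatCCAAAGAac
MERTK, chr2:112028959-112028986, plus strand: accaagtgaactccatggccCCAAAGca

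AXL held 1 match to all of the seed (ACCAAAG) and 2 shorter matches (CCAAAG) in a 3′ UTR of 1862 bases. TYRO3 held 1 match extended by the A that follows a site (CCAAAGA) and 5 shorter matches in 5313 bases, and MERTK held 1 short match in 697 bases. Neither ligand gene held any, in 315 bases for GAS6 and 1243 bases for PROS1. The strongest class of match, ACCAAAGA, was in none of the 5 genes and in 4.56% of 19248 protein-coding genes. At least 1 match of 7 bases was in 2 of the 5 genes and in 22.9% of all protein-coding genes, and in 25.3% of genes with a 3′ UTR about as long as that of AXL and 55.9% of those about as long as that of TYRO3. A match is only a run of letters and is not a measured site.

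AXL (chr19:41219223-41261766, plus strand), the receptor that responds mainly to GAS6, gave the plainest difference of the family. In NTERA-2 cells it stood at 216, 211, 214 and 205 CPM with the MIR9-2-5p mimic, against 26.4, 25.7, 23.6 and 26.3 CPM with the scrambled mimic. The groups lay far apart, and each varied little among its replicates (211 ± 4.72 and 25.5 ± 1.31 CPM, mean ± SD, n = 4 each). The log2 fold change was 3.05 with a standard error (SE) of 0.07, or 8.27-fold, and it ranked 202 from the top of the 17586 genes tested in that line. In TCam-2 cells AXL was close to the limit of counting, with 12, 16, 13 and 12 reads per library with the MIR9-2-5p mimic against 4, 12, 7 and 8 with the scrambled mimic. These groups touched, at 0.782 ± 0.163 and 0.452 ± 0.173 CPM, and the log2 fold change of 0.78 had an SE of 0.38. AXL, whose 3′ UTR holds the ACCAAAG match printed above, was higher with the MIR9-2-5p mimic in NTERA-2 cells, and in TCam-2 cells, at the few reads given, the groups could not be told apart.

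TYRO3 (chr15:41557675-41583589, plus strand), the receptor best known from the nervous system, was present at similar levels everywhere. NTERA-2 cells gave 134, 140, 122 and 126 CPM with the MIR9-2-5p mimic and 141, 111, 128 and 137 CPM with the scrambled mimic. The groups overlapped fully and the log2 fold change was 0.01 (SE 0.08). TCam-2 cells gave 190, 197, 163 and 191 CPM with the MIR9-2-5p mimic and 152, 161, 150 and 154 CPM with the scrambled mimic. Here the MIR9-2-5p libraries lay higher without overlap, by a narrow gap, with a log2 fold change of 0.27 (SE 0.07).

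MERTK (chr2:111898607-112029561, plus strand), the main receptor for engulfment in macrophages, the retina and Sertoli cells, was much higher in the seminoma line than in NTERA-2 cells. In TCam-2 cells with the scrambled mimic it averaged less than TYRO3 (135 against 154 CPM). TCam-2 cells gave 244, 250, 257 and 248 CPM with the MIR9-2-5p mimic, against 142, 129, 138 and 133 CPM with the scrambled mimic. The groups were well apart, with a log2 fold change of 0.90 (SE 0.06), or 1.86-fold. In NTERA-2 cells MERTK gave 8.24, 8.16, 8.39 and 8.83 CPM with the MIR9-2-5p mimic and 11.5, 12.0, 10.7 and 7.83 CPM with the scrambled mimic. Here 1 scrambled library, replicate 4, fell below all MIR9-2-5p libraries, and the log2 fold change was −0.32 (SE 0.13). Without that library it was −0.44, and without scrambled replicate 2 it was −0.25. The edgeR call on this gene was lost when any 1 of the other 7 libraries was left out.

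GAS6 (chr13:113820549-113864076, minus strand), the ligand shared by all TAM receptors, moved in opposite directions in the lines. In NTERA-2 cells it stood at 39.5, 48.5, 37.3 and 41.9 CPM with the MIR9-2-5p mimic, against 25.4, 18.2, 19.1 and 25.9 CPM with the scrambled mimic. In TCam-2 cells it stood at 153, 152, 107 and 142 CPM with the MIR9-2-5p mimic, against 196, 228, 215 and 217 CPM with the scrambled mimic. The groups did not overlap in either line, although MIR9-2-5p replicate 3 of TCam-2 lay well under its fellows. The log2 fold change was 0.91 (SE 0.12) in NTERA-2 and −0.61 (SE 0.09) in TCam-2, each line being fitted alone. An antisense RNA, GAS6-AS1 (chr13:113815630-113845744, plus strand), overlaps the gene, and the strand setting of the counting is not given in the sources used here. GAS6-AS1 averaged 9.68 CPM with the MIR9-2-5p mimic and 4.51 CPM with the scrambled mimic in NTERA-2 cells, and 1.40 and 0.736 CPM with the same mimics in TCam-2 cells. Without strand, reads of the overlapping part cannot be assigned to either gene with certainty.

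PROS1 (chr3:93873051-93980003, minus strand), which encodes protein S, was, like AXL, much higher with the MIR9-2-5p mimic in NTERA-2 cells. It stood at 66.6, 66.3, 71.6 and 76.0 CPM with the MIR9-2-5p mimic, against 9.44, 10.4, 9.58 and 7.62 CPM with the scrambled mimic. The groups lay far apart, with a log2 fold change of 2.92 (SE 0.10), or 7.55-fold. TCam-2 cells gave 23.7, 28.2, 31.05 and 25.3 CPM with the MIR9-2-5p mimic and 20.5, 22.8, 22.4 and 22.8 CPM with the scrambled mimic. The lowest MIR9-2-5p library there was only just above the highest scrambled library, and the log2 fold change was 0.30 (SE 0.09). The pseudogene PROS2P had 0 counts in all 16 libraries, and the TYRO3 pseudogene TYRO3P had at most 7 counts in a library.

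**Figure D1:**
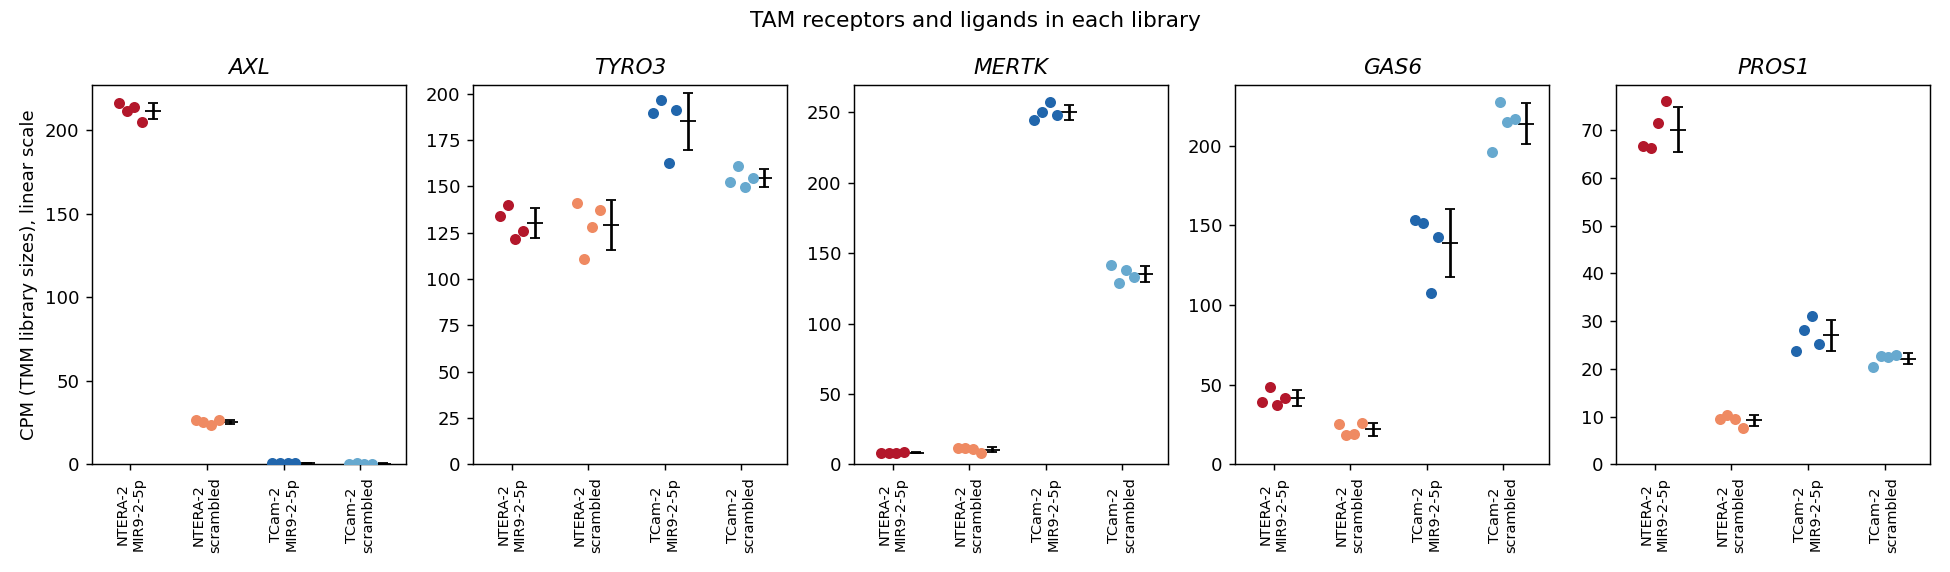
Level of each gene (vertical axis, CPM on a linear scale that starts at 0) in the 4 libraries of each group (points), with the group mean and SD (black bars). AXL and PROS1 stand highest in NTERA-2 cells with the MIR9-2-5p mimic (211 and 70.1 CPM on average), MERTK in TCam-2 cells with the MIR9-2-5p mimic (249.9 CPM) and GAS6 in TCam-2 cells with the scrambled mimic (214 CPM).

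Counted by edgeR's quasi-likelihood test with an adjusted p under 0.05, 3 of the 5 genes were called higher and 1 lower in NTERA-2 cells, where 59.3% of all genes tested were called (30.2% higher and 29.1% lower). In TCam-2 cells 3 were called higher and 1 lower, where 66.3% of all genes were called (33.7% higher and 32.7% lower). The uncalled gene was TYRO3 in NTERA-2 cells and AXL in TCam-2 cells. When only changes above 1.5-fold were tested, MERTK alone was still called in TCam-2 cells, and AXL, GAS6 and PROS1 in NTERA-2 cells. Over all genes, that test called 2182 higher and 1996 lower of 16847 in TCam-2 cells. In NTERA-2 cells it called 2192 higher and 1715 lower of 17586. The ranges of the mimic groups did not overlap for 3 genes in NTERA-2 cells, all higher, as for 52% of all genes there (27.4% higher and 24.6% lower). They did not overlap for 4 genes in TCam-2 cells, 3 higher and 1 lower, as for 59% of all genes (29.5% in either direction). Since the genes were chosen with these values known, nothing is read from the counts. In a bulk library, fewer cells that express a gene and less of its RNA per cell cannot be told apart.

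**Figure D2:**
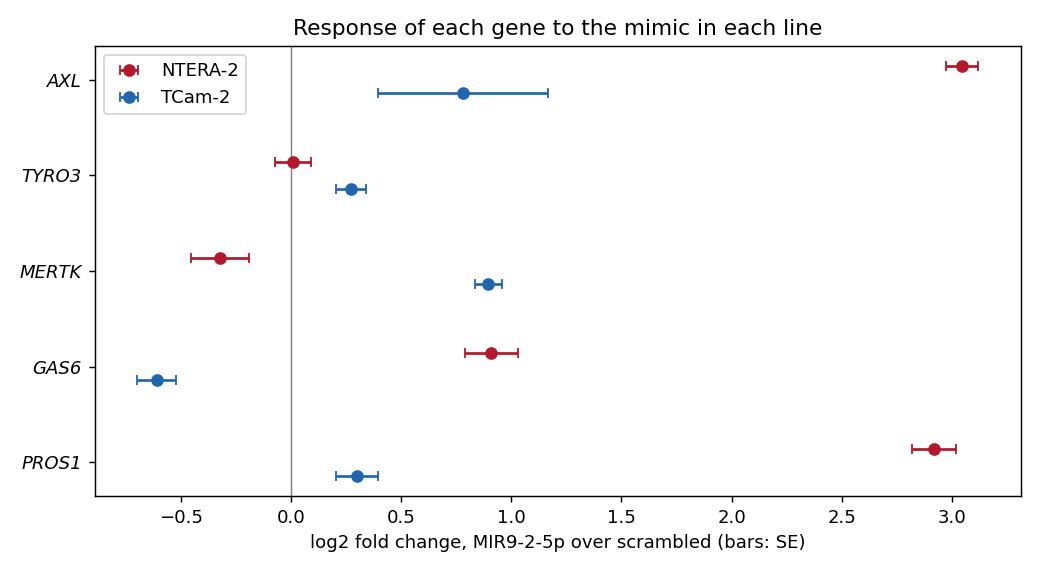
Log2 fold change of each gene, MIR9-2-5p over scrambled mimic (horizontal axis), in NTERA-2 (red) and TCam-2 (blue), with bars of 1 SE from the edgeR fit of each line. AXL and PROS1 reach 3.05 and 2.92 in NTERA-2 cells, and GAS6 lies on opposite sides of 0, at 0.91 in NTERA-2 and −0.61 in TCam-2.

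The responses of the lines were also set against each other within 1 fit over all 16 libraries. The log2 fold change in NTERA-2 minus that in TCam-2 was 2.63 (SE 0.14) for PROS1, 2.29 (SE 0.30) for AXL and 1.54 (SE 0.17) for GAS6. It was −1.20 (SE 0.13) for MERTK and −0.25 (SE 0.11) for TYRO3. By edgeR 3 genes were called higher in this difference and 1 lower, beside 53.2% of the 19576 genes tested (27.9% higher and 25.3% lower). The uncalled gene, TYRO3, was called lower in 9 of 24 settings. The AXL value rests on the few TCam-2 reads given above.

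With the scrambled mimic, the lines differed in all 5 genes. AXL averaged 25.5 CPM in NTERA-2 and 0.452 CPM in TCam-2, a log2 difference of 5.79 (SE 0.14). MERTK had the reverse pattern, with 10.5 CPM in NTERA-2 and 135 CPM in TCam-2 (log2 difference −3.69, SE 0.09), as did GAS6 with 22.2 CPM in NTERA-2 and 214 CPM in TCam-2 (−3.27, SE 0.13). PROS1 was lower in NTERA-2 by less (−1.26, SE 0.10), and TYRO3 by little (−0.26, SE 0.08). By edgeR 1 gene was called higher in NTERA-2 and 4 lower, beside 77.4% of all genes tested (39.1% higher and 38.3% lower). The TYRO3 call was lost with total counts alone (−0.11). With a replicate block TYRO3 was not called either (−0.19), but that value refers to replicate 1 of each line, not to the group means. The libraries of the lines did not overlap for any of the 5 genes, as for 70.5% of all genes (35.4% higher and 35.1% lower).

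Over the 4 groups AXL was highest in NTERA-2 with the MIR9-2-5p mimic, then in NTERA-2 with the scrambled mimic, and its TCam-2 groups overlapped. TYRO3 and MERTK were highest in TCam-2 with the MIR9-2-5p mimic, then in TCam-2 with the scrambled mimic, and their NTERA-2 groups overlapped. GAS6 and PROS1 separated all of the groups. GAS6 was highest in TCam-2 with the scrambled mimic and lowest in NTERA-2 with the scrambled mimic, and PROS1 was highest in NTERA-2 with the MIR9-2-5p mimic and lowest in NTERA-2 with the scrambled mimic.

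To compare the receptors with each other, the levels were divided by the length of all annotated exons (CPM per kb). AXL made up 74.4 ± 0.992% of the receptor RNA in NTERA-2 cells with the MIR9-2-5p mimic, against 25.5 ± 1.55% with the scrambled mimic (SD, n = 4 each). TYRO3 made up 21.9 ± 1.06% with the MIR9-2-5p mimic and 61.4 ± 3.40% with the scrambled mimic in that line, although its own level was alike. The leading receptor of NTERA-2 cells was thus AXL with the MIR9-2-5p mimic and TYRO3 with the scrambled mimic. In TCam-2 cells MERTK made up 77.7 ± 1.71% with the MIR9-2-5p mimic and 69.4 ± 1.57% with the scrambled mimic, and AXL at most 0.264% in any library. The receptor sum was 55.3 ± 1.24 CPM per kb with the MIR9-2-5p mimic and 19.5 ± 1.20 with the scrambled mimic in NTERA-2 cells, and 77.8 ± 0.917 and 47.2 ± 0.999 with the same mimics in TCam-2 cells. The order of MERTK and TYRO3 in TCam-2 cells depends on the length used. Divided by coding length, which leaves out the long 3′ UTR of TYRO3, MERTK made up 54.6% with the MIR9-2-5p mimic and 43.8% with the scrambled mimic, and TYRO3 45.3% and 56.0%.

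The ligands changed places in NTERA-2 cells. PROS1 made up 65.7 ± 3.38% of the ligand RNA per exon length with the MIR9-2-5p mimic and 32.7 ± 6.47% with the scrambled mimic, GAS6 being the remainder. In TCam-2 cells GAS6 led in both groups, with 81.5 ± 4.30% with the MIR9-2-5p mimic and 89.4 ± 0.221% with the scrambled mimic. The ligand sum was 20.3 ± 0.964 CPM per kb with the MIR9-2-5p mimic against 5.44 ± 0.525 with the scrambled mimic in NTERA-2 cells. In TCam-2 cells it was 28.2 ± 3.09 CPM per kb with the MIR9-2-5p mimic against 39.7 ± 2.38 with the scrambled mimic.

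**Figure D3:**
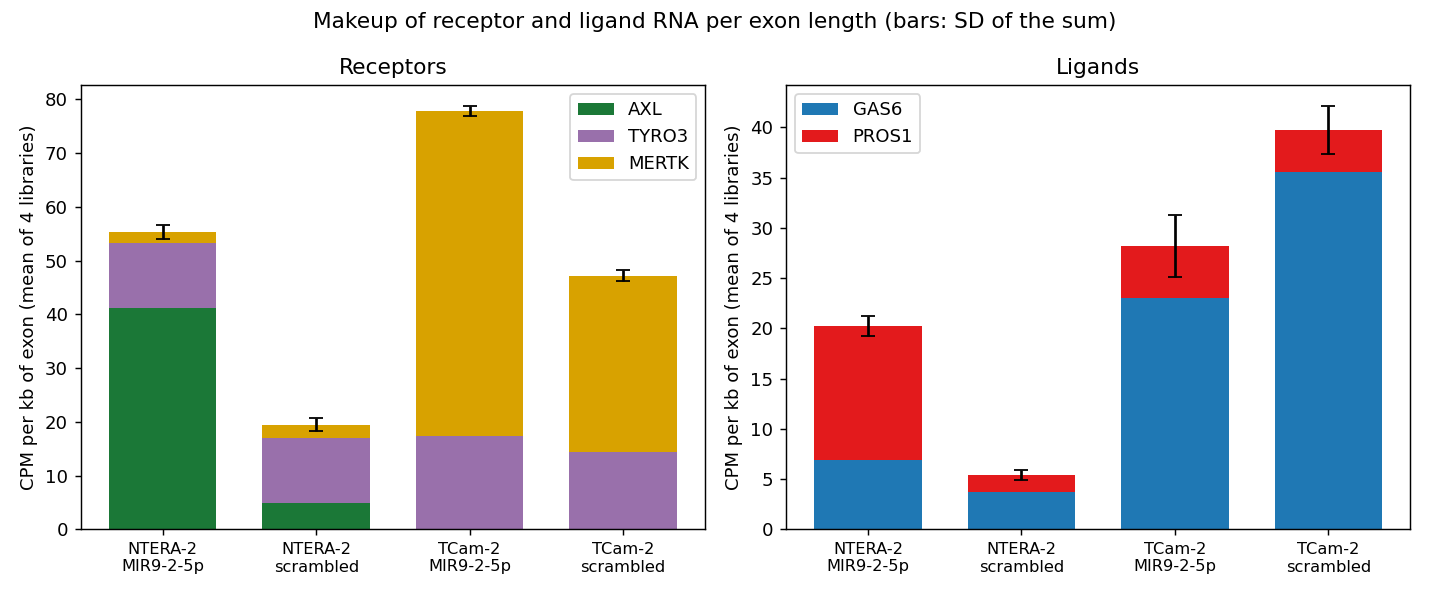
Mean level per kb of exon (vertical axis, CPM per kb) of the receptors (left) and ligands (right), stacked for each group, with the SD of the summed level over 4 libraries. The receptor sum is 55.3 in NTERA-2 with the MIR9-2-5p mimic, mostly AXL, against 19.5 with the scrambled mimic, mostly TYRO3, and MERTK fills most of the TCam-2 bars.

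Receptor tyrosine kinases are a large class of growth factor and guidance receptors, and 58 of them were ranked by level per kb of exon. AXL was the second of the 58 in NTERA-2 cells with the MIR9-2-5p mimic, behind EPHA2 (41.2 and 54.5 CPM per kb), and number 18 with the scrambled mimic. MERTK was the second in both TCam-2 groups, behind FGFR3, which stood at 64.99 CPM per kb with the MIR9-2-5p mimic and 65.4 with the scrambled mimic. TYRO3 stayed among the first 10 in all groups. These places were taken with exon length alone. Per kb of coding sequence, TYRO3 stood above MERTK in TCam-2 cells with the scrambled mimic (57.8 against 45.2 CPM per kb). Of the 49 receptors tested in NTERA-2 cells, AXL had the highest log2 fold change, followed by NTRK3 (2.29, SE 0.13), a neurotrophin receptor. Of the 45 tested in TCam-2 cells, MERTK came at place 7.

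**Figure D4:**
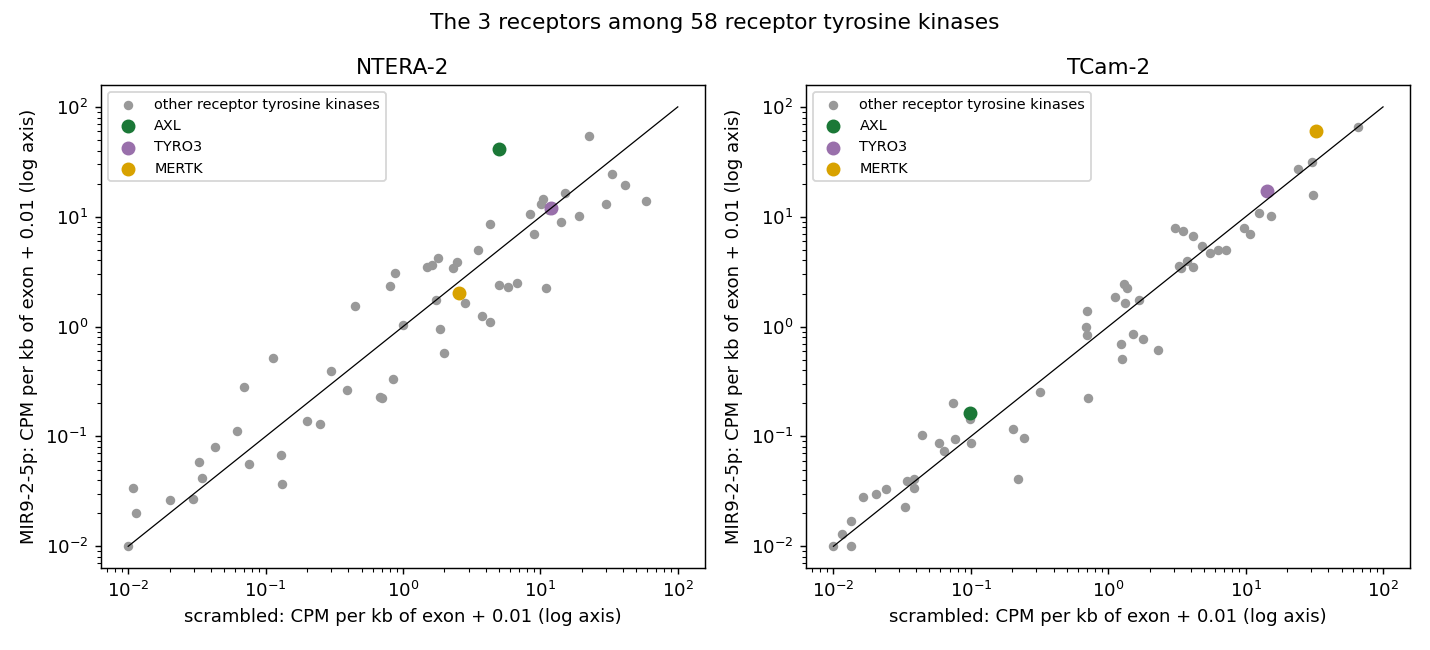
Level of 58 receptor tyrosine kinases with the MIR9-2-5p mimic (vertical axis) against the scrambled mimic (horizontal axis), both as CPM per kb of exon plus 0.01 on log axes, in NTERA-2 (left) and TCam-2 (right), with the line of equal levels. AXL stands far above the line in NTERA-2 cells (41.2 against 4.97 CPM per kb), MERTK above it in TCam-2 cells (60.5 against 32.8), and TYRO3 close to it in both.

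The other receptor tyrosine kinases went in both directions. In NTERA-2 cells 17 of the 46 tested rose and 22 fell (37.0% and 47.8%, against 30.2% and 29.1% of all genes tested; edgeR, adjusted p under 0.05), with a median log2 fold change of −0.39 against −0.02 over all genes tested. Among those that fell were EPHA1, an ephrin receptor (−2.08, SE 0.09, adjusted p = 3.91e-12), and ERBB3, a neuregulin receptor (−1.83, SE 0.11, adjusted p = 2.41e-10). In TCam-2 cells 12 of 42 rose and 17 fell (28.6% and 40.5%, against 33.7% and 32.7% of all genes tested), with a median of 0.02, as over all genes. KIT, the stem cell factor receptor that marks seminoma, rose there by edgeR to 90.2 ± 8.12 CPM with the MIR9-2-5p mimic, against 34.3 ± 2.10 CPM with the scrambled mimic (adjusted p = 5.57e-11). The response differed between the lines by edgeR's interaction test for 33 of 47, beside 53.2% of all genes.

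Of 14 transcription factors and cofactors reported to act on the AXL gene in other systems, 7 rose and 4 fell in NTERA-2 cells (50% and 28.6%, against 30.2% and 29.1% of all genes tested; edgeR, adjusted p under 0.05; median log2 fold change 0.20). EPAS1, the hypoxia-inducible factor subunit HIF-2α, had 100.04 ± 4.04 CPM with the MIR9-2-5p mimic against 13.1 ± 0.756 CPM with the scrambled mimic (edgeR, log2 fold change 2.93, SE 0.08, adjusted p = 3.77e-14). FOSL1 and JUN, subunits of the AP-1 factor, rose by 1.86 (SE 0.08) and 1.05 (SE 0.12) on the log2 scale, and FOS, another subunit, fell by 1.06 (SE 0.12). TEAD3 and TEAD1, DNA-binding partners of the cofactor YAP1, rose by 1.24 (SE 0.10) and 0.96 (SE 0.08), while TEAD2 fell by 0.26 (SE 0.08). TEAD4 had a log2 fold change of 0.07 (SE 0.09) and YAP1 itself of 0.10 (SE 0.07), and neither was called. SP3, which binds GC boxes, fell by 0.25 (SE 0.08), with overlapping libraries. In TCam-2 cells 7 of the 14 rose and 5 fell (50% and 35.7%, against 33.7% and 32.7% of all genes tested; median 0.08). There FOS, TEAD1 and YAP1 rose by 0.99 (SE 0.09), 0.66 (SE 0.07) and 0.48 (SE 0.06), and TEAD2 fell by 0.75 (SE 0.07). The others that fell there were FOSL1 (−1.34, SE 0.20), EPAS1 (−0.42, SE 0.08), TEAD3 (−0.40, SE 0.09) and TEAD4 (−0.23, SE 0.08). The response differed between the lines by edgeR's interaction test for 11 of the 14, beside 53.2% of all genes. Among the 11 were EPAS1 (difference 3.36, SE 0.10) and FOSL1 (3.22, SE 0.18).

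Promoter letters were searched for motifs of some of those factors, namely TEAD, AP-1 and the GC box. No motif was searched for the other factors of the list, EPAS1 among them. The search covered 250 bases before to 50 after each start in RefSeq (GRCh38.p14), which gave 7 promoters for the 5 genes. Windows around 2 of the matches are printed because their factors are among the genes just named, with the motif in capitals. The strand printed is the gene's own, and CATTCC is the reverse complement of the TEAD motif.
AXL, downstream start, chr19:41226534-41226559, TEAD motif: actttgcacCATTCCactccctccgc
TYRO3, chr15:41558983-41559008, AP-1 motif: agaagaacaTGAATCAgcggcggcga
Searched on both strands, the TEAD motif GGAATG was in 1 of the 7 promoters and in 14% of all 35116. The AP-1 pattern TGANTCA, with any base allowed at N, was in 1 of the 7 and in 7.71% of all. The TYRO3 match has A at N, so it is a match to this loose pattern only. The GC box GGGCGG was in 5 of the 7, at least 1 for each gene, and in 45% of all. A match is a description of letters, not of a bound factor.

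Genes reported downstream of the receptors, or acting on them, included kinases, adaptors, feedback genes and sheddases. Of 31 listed, 29 were tested in NTERA-2 cells, where 17 rose and 3 fell (58.6% and 10.3%, against 30.2% and 29.1% of all genes tested; edgeR), with a median log2 fold change of 0.30. IFNAR1, the interferon receptor chain with which TAM receptors cooperate in mouse dendritic cells, had 66.3 ± 7.11 CPM with the MIR9-2-5p mimic against 33.3 ± 2.14 CPM with the scrambled mimic (edgeR, adjusted p = 6.23e-08). SOCS3, a feedback inhibitor of cytokine signals, rose by 1.03 (SE 0.13) on the log2 scale, and SNAI2, a factor of epithelial-mesenchymal transition, by 1.38 (SE 0.13). PIK3R1, the regulatory subunit of PI3-kinase, rose by 0.77 (SE 0.10), and the adaptors CRK and BCAR1 by 0.49 (SE 0.07) and 0.65 (SE 0.14). When only changes above 1.5-fold were tested, 3 genes of this list were called higher, beside 2192 of all 17586 genes tested.

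In TCam-2 cells 11 of 29 genes of that list rose and 12 fell (37.9% and 41.4%, against 33.7% and 32.7% of all genes tested; edgeR, median 0.06). SOCS1, another feedback inhibitor, fell to 9.94 ± 2.53 CPM with the MIR9-2-5p mimic, against 44.04 ± 4.81 CPM with the scrambled mimic (edgeR, adjusted p = 8.43e-10). The adaptor SHC1 fell by 0.90 (SE 0.07) and TWIST1, a factor of epithelial-mesenchymal transition that is induced through AXL in immune cells, by 1.30 (SE 0.11). STAT3 and the ubiquitin ligase CBL, which binds activated receptors, rose by 0.98 (SE 0.07) and 0.71 (SE 0.07). The response differed between the lines for 18 of 30 genes by edgeR's interaction test, beside 53.2% of all genes. The adaptor BCAR1 was among them, since it rose in NTERA-2 cells and fell in TCam-2 cells (57.1 ± 9.56 CPM with the MIR9-2-5p mimic against 105 ± 4.52 CPM with the scrambled mimic).

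Genes that expose, bridge or sense phosphatidylserine, engulf dying cells or carboxylate the ligands were split evenly. Of 35 listed, 29 were tested in NTERA-2 cells, with 11 higher and 10 lower by edgeR (37.9% and 34.5%, against 30.2% and 29.1% of all genes tested, median log2 fold change −0.06). In TCam-2 cells 27 were tested, with 10 higher and 10 lower (37.0% each, against 33.7% and 32.7% of all genes tested, median 0.03). ABCA1, a lipid exporter that engulfing cells induce, rose in both lines, to 133 ± 5.71 CPM with the MIR9-2-5p mimic against 48.6 ± 5.73 CPM with the scrambled mimic in NTERA-2, and to 130.3 ± 7.61 against 26.8 ± 4.10 CPM in TCam-2 (edgeR, adjusted p = 2.59e-10 and 2.20e-12). ITGAV, an integrin chain that takes part in binding the bridging protein MFGE8, rose in both lines (1.47, SE 0.09 and 0.76, SE 0.08). MFGE8 fell in both (−0.43, SE 0.08 and −0.38, SE 0.09). ITGB5, another integrin chain of the list, fell in TCam-2 cells (−1.20, SE 0.07) and was not called in NTERA-2 cells (−0.17, SE 0.08). The scramblase ANO6, which exposes phosphatidylserine, rose in NTERA-2 cells (0.59, SE 0.08) and fell in TCam-2 cells (−0.33, SE 0.07). The flippase ATP11A, which removes phosphatidylserine from the surface, rose in TCam-2 cells (0.93, SE 0.08). GGCX, the carboxylase that GAS6 and protein S need, rose in TCam-2 cells to 121 ± 1.71 CPM with the MIR9-2-5p mimic, against 75.2 ± 4.20 CPM with the scrambled mimic (edgeR, adjusted p = 5.69e-08). GGCX rose in NTERA-2 cells as well (0.42, SE 0.09). CALR, the chaperone calreticulin, fell in TCam-2 cells to 488 ± 52.6 CPM with the MIR9-2-5p mimic, against 1546 ± 188 CPM with the scrambled mimic (edgeR, adjusted p = 2.78e-11). The response differed between the lines for 17 of 30 genes by edgeR's interaction test, beside 53.2% of all genes.

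**Figure D5:**
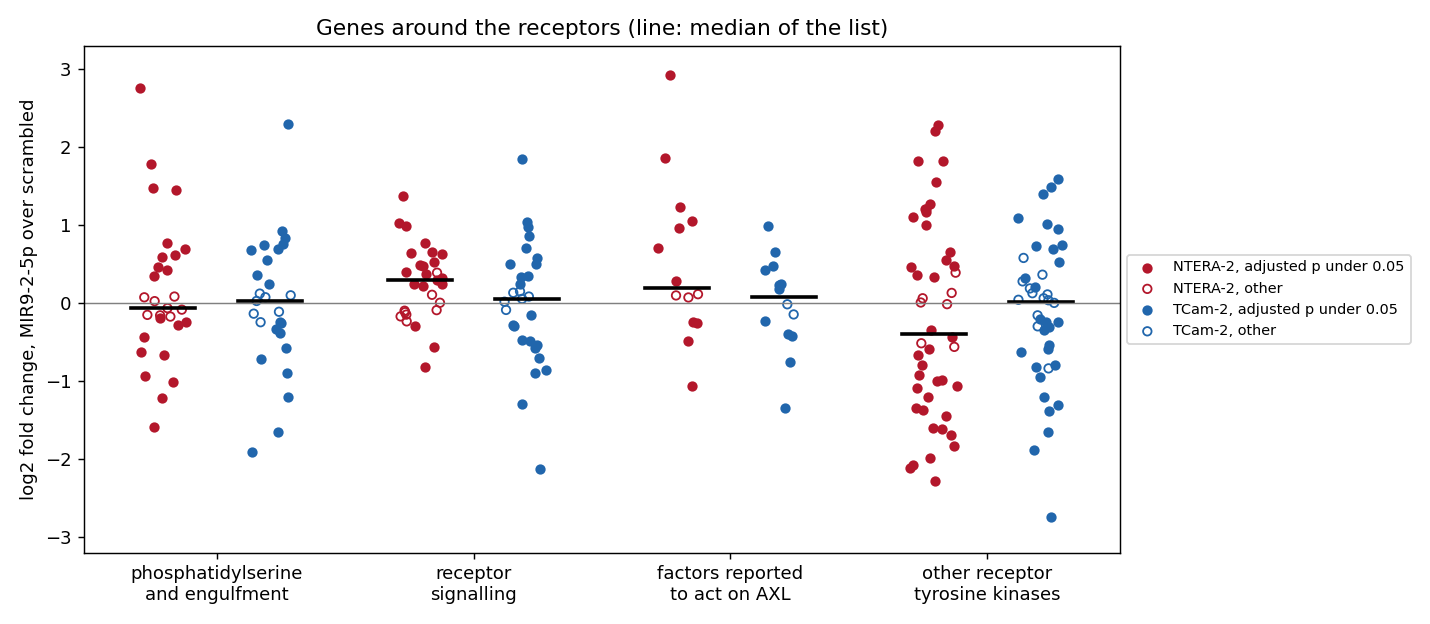
Log2 fold change of each tested gene, MIR9-2-5p over scrambled mimic (vertical axis), in 4 lists around the receptors for NTERA-2 (red) and TCam-2 (blue), filled where edgeR's adjusted p was under 0.05, with the list median as a black line. Receptor signalling genes lie mostly above 0 in NTERA-2 cells (17 higher and 3 lower of 29) and on both sides in TCam-2 cells (11 higher and 12 lower of 29).

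The genes whose log2 CPM followed each member most closely over the 16 libraries were taken from 11300 protein-coding genes, as a description with no p. The 16 libraries share 2 lines, so they are not independent points. AXL was closest to THBS1, the matrix glycoprotein thrombospondin-1 (r = 0.998), which had 141 CPM with the MIR9-2-5p mimic and 27.0 CPM with the scrambled mimic in NTERA-2 cells, and 2.29 and 1.72 CPM with the same mimics in TCam-2 cells. The next were the cell adhesion molecules CADM1 (r = 0.997) and CADM3 (r = 0.996). PROS1 was closest to NUAK1, an AMPK-related kinase (r = 0.989), then to BHLHE40, a transcription factor of the clock and hypoxia responses (r = 0.985), and TNFAIP1 (r = 0.983). MERTK was closest to SERPINB9, an inhibitor of granzyme B (r = 0.998), which had 1826 CPM with the MIR9-2-5p mimic and 867 CPM with the scrambled mimic in TCam-2 cells. The nearest gene to GAS6 was MDFI, an inhibitor of myogenic factors (r = 0.997), and the nearest to TYRO3 was FLOT2, a membrane scaffold protein (r = 0.964).

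Markers of other cells were set beside these results. The 9 fibroblast markers summed to 606 to 694 CPM in NTERA-2 cells with the MIR9-2-5p mimic and 518 to 609 CPM with the scrambled mimic, and to 192 to 212 CPM in TCam-2 cells with the MIR9-2-5p mimic and 472 to 491 CPM with the scrambled mimic. The 6 Sertoli cell markers summed to 56.6 to 71.7 CPM in NTERA-2 cells with the MIR9-2-5p mimic and 65.1 to 103 CPM with the scrambled mimic, and to 86.5 to 112 and 82.4 to 89.2 CPM with the same mimics in TCam-2 cells. The markers of the fibroblast list went both ways in NTERA-2 cells, where COL1A1 averaged 354 CPM with the MIR9-2-5p mimic against 129 CPM with the scrambled mimic, and THY1 averaged 166 CPM against 372 CPM. DCN, a defining fibroblast gene, was at 0 in all NTERA-2 libraries. The Sertoli list was mixed in TCam-2 cells, where FSHR, which Sertoli cells use to sense follicle-stimulating hormone, was at 0 in all libraries and GATA4 averaged 80.3 CPM with the MIR9-2-5p mimic against 63.5 CPM with the scrambled mimic. SOX9 averaged 31.1 CPM with the MIR9-2-5p mimic against 6.31 CPM with the scrambled mimic in NTERA-2 cells, and 13.6 against 10.04 CPM in TCam-2 cells. AMH of the Sertoli list went the other way, at 30.2 against 78.9 CPM in NTERA-2 cells and 4.36 against 11.4 CPM in TCam-2 cells. The part of such cells in the levels of AXL, PROS1, MERTK and GAS6 was not tested.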

How the data were processed

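The authors aligned paired-end reads to GRCh38 with STAR and deposited whole-number read counts per gene from featureCounts. The labels name Trim Galore, cutadapt and FastQC for trimming and checks. Neither the annotation release nor strandedness is given in the sources used here. Of 58735 identifiers, 58207 matched GENCODE release 44.

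Counts were tested with edgeR 4.0.16 (R 4.3.3; TMM scaling, filterByExpr with a minimum count of 10 and total of 15, robust quasi-likelihood fit, Benjamini-Hochberg adjustment over all genes tested), each line alone. The difference between lines, and between the scrambled groups, came from 1 fit over 16 libraries. The p-values test a difference between group means against the spread among the replicates of each group. They do not cover the spread between lines of the same tumour type. CPM used TMM library sizes over all 16 libraries, whose totals of 14167738 to 22427162 set the precision of low counts such as those of AXL in TCam-2. SE is the log2 fold change over the root of F.

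Named were the 5 genes, their pseudogenes and overlapping genes, the 3 closest genes by correlation (mean count at least 100), and from each list the 4 smallest adjusted p-values per line and called genes above 100 CPM; those printed are a selection. The genes and lists were chosen with earlier results of these data known. Alternatives were DESeq2 1.42.0, other scalings, filters, a fold minimum, a replicate block and leaving out each library. Lengths other than the exon union were added after seeing the data.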

Additional observations from a re-analysis of the deposited data

Results flagged for a closer look

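GAS6 was higher with the MIR9-2-5p mimic in every NTERA-2 library than in any scrambled library of that line, and lower in every TCam-2 library than in any scrambled library of that line. The difference of its log2 fold changes, NTERA-2 minus TCam-2, in 1 fit over all libraries was 1.54 (SE 0.17). The fit called it, but the gene was chosen with these values known, so no independent test of this difference was made. The response differed between the lines by edgeR's interaction test (adjusted p under 0.05) for 33 of 47 other receptor tyrosine kinases, 18 of 30 receptor signalling genes, 17 of 30 genes of phosphatidylserine and engulfment, and 11 of 14 factors reported to act on AXL, beside 53.2% of all genes.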

How the results depend on the processing

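Of 349 values of the members' log2 fold changes under alternatives, 346 moved by less than the replicate spread and no called one changed sign; TYRO3 in NTERA-2, which was never called, ran between −0.06 and 0.05. TYRO3 in TCam-2 became 0.41 and MERTK in TCam-2 became 1.03 with total counts alone, a scaling that shifts the median of all genes there by 0.14 on the log2 scale and calls 6935 genes higher and 4319 lower, against 5673 and 5504 with TMM; for the difference between the lines it calls 4480 and 6079, against 5464 and 4950. Same-numbered libraries did not deviate together (correlations of −0.20 to 0.04), so the number is no pairing. With a replicate block, 4917 genes were higher and 4638 lower in NTERA-2. Between the scrambled groups, the fit with that block gives the difference at replicate 1 of each line. Its AXL value of 6.38 is therefore not a difference of group means and does not show an effect of blocking. Leaving out 1 library gave AXL fold changes of 3.01 to 3.07 in NTERA-2 and 0.55 to 0.98 in TCam-2, MERTK −0.44 to −0.25 and 0.85 to 0.91, GAS6 0.83 to 0.99 and −0.66 to −0.51, PROS1 2.83 to 2.98 and 0.23 to 0.36, and TYRO3 −0.06 to 0.05 and 0.24 to 0.33 in the same lines. Testing with edgeR for changes above 1.5-fold left 2192 genes higher and 1715 lower in NTERA-2 and 2182 and 1996 in TCam-2, because small changes no longer count. In NTERA-2 it left 5 and 3 phosphatidylserine and engulfment genes, 3 and 0 signalling genes (unadjusted p under 0.05: 4 and 0), 1 lower factor acting on AXL and 11 higher receptor tyrosine kinases. The factors called higher and the kinases called lower there are not counted here. In the main NTERA-2 fit, EPAS1 had 2.93 (SE 0.08) and EPHA1 −2.08 (SE 0.09) on the log2 scale. In TCam-2 the 1.5-fold test left 4 and 4, 5 and 4, 1 and 2, and 6 and 8 of those lists. Signalling genes called lower in NTERA-2 became 6 with upper-quartile scaling, and those lower in the difference between lines became 5 with RLE, upper-quartile or total-count scaling or a mean count of at least 100; the cause was not tested. Counting only the strongest seed match left 0 members. AXL in TCam-2, with at most 16 reads in a library, was called in 2 of 17 settings (total counts alone, and all libraries in 1 fit), and MERTK in NTERA-2 was called in 7 of 18.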
